A study of Mus musculus with 8 samples.

Results

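Circadian clock genes were described here as a set of 10: Clock, Npas2, Arntl, Per1, Per2, Per3, Cry1, Cry2, Nr1d1 and Nr1d2. They were chosen by name, as the core of the molecular clock, and all 10 were found among the 24011 named genes of the table. Expression was measured on 8 arrays of sorted bone marrow cells from adult C57Bl6 mice, and the labels name no treatment. Lin+ cells carry surface antigens of the mature blood lineages and made up 4 of the arrays. The other 4 held HSC-enriched cells, a scarce fraction that concentrates haematopoietic stem cells. Their sort is labelled as LSK (lineage-negative, Sca-1-positive, Kit-positive) with CD105 present and CD48 absent, while the design text names CD150 in place of CD105. The labels do not say whether animals were pooled, whether arrays of a group came from separate animals, or at what hour marrow was taken. The spread behind each p-value is therefore that between these 8 arrays and may be technical, and the small number of arrays limits the precision.

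The clock is a feedback loop that runs in most cells over about a day. CLOCK or its relative NPAS2 pairs with BMAL1, the product of Arntl, and the pair switches on the Per and Cry genes, whose proteins return to the nucleus and block it. In a linked loop the same pair switches on Nr1d1 and Nr1d2, whose products REV-ERB alpha and beta repress Arntl, while ROR receptors activate it. In marrow, the release of stem cells into blood is known to follow a daily rhythm.

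In HSC-enriched cells 7 of the 10 clock genes were higher than in Lin+ cells, 1 was lower and 2 did not pass the test (limma, Benjamini-Hochberg adjusted p under 0.05). Those that rose were Nr1d1, Nr1d2, Per1, Per3, Cry2, Npas2 and Clock, by 1.63-fold (Clock) to 2.87-fold (Nr1d1). Arntl fell, and Per2 and Cry1 were the members that did not pass. Over all genes tested, 15.5% were higher and 12.4% lower, and among the 12991 genes whose mean lay above a background guide the shares were 25.1% and 19.3%. The median difference of the 10 genes was 0.83 on the log2 scale, against 0.02 over all genes. Of the 10, 3 passed with a rise of at least 2-fold (Nr1d1, Nr1d2 and Per1), compared with 4.8% of all genes. The arrays of the groups did not overlap for 8 of the 10, compared with 28.9% of all genes. For 6 of these every HSC-enriched array was above every Lin+ array (15.9% of all genes) and for 2 below (13%). Because Lin+ is a mixture of lineages and each array measured a whole sorted sample, fewer cells of a type and less RNA per cell cannot be told apart in any of these values.

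**Figure D1:**
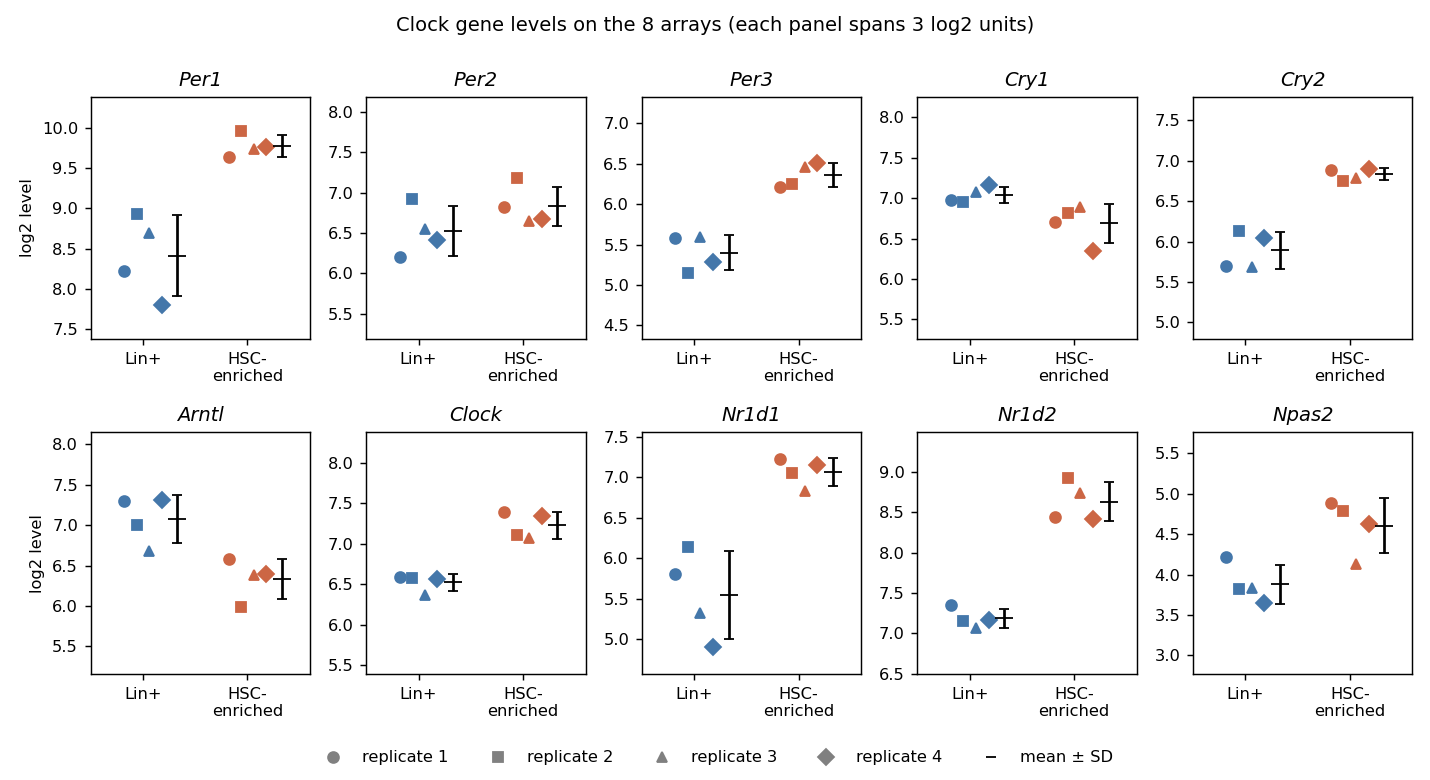
Log2 level (y axis) of each clock gene on 4 Lin+ arrays (blue) and 4 HSC-enriched arrays (orange), with a marker shape per replicate and the group mean ± SD in black. The 4 HSC-enriched arrays lie above all Lin+ arrays for Per1, Per3, Cry2, Clock, Nr1d1 and Nr1d2, below them for Cry1 and Arntl, and overlap them for Per2 and Npas2.

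Marker genes were set against the labels of the 2 populations. A list of 13 measured stem cell genes, among them Meis1, Mecom and Kit, averaged 8.56 to 8.70 on HSC-enriched and 5.46 to 5.55 on Lin+ arrays (log2 level). In that list Kit and Eng (CD105) encode antigens of the labelled sort, and Slamf1 encodes CD150. These genes are therefore no independent check of the labels. Lists of B cell, erythroid, monocyte, and T and NK cell genes, 8 measured in each, were lower in HSC-enriched cells in all 8 members of every list. Since the sorts divide cells by lineage antigens, lower mature lineage genes are no independent check of the labels either. Of 7 megakaryocyte genes, by contrast, 4 were higher and 0 lower (Pf4, Itga2b, Gp9 and Treml1), with list means of 6.54 to 6.89 on HSC-enriched and 5.52 to 6.19 on Lin+ arrays. Of 12 neutrophil genes 11 were lower, and the list averaged 11.61 to 11.87 on Lin+ arrays. In the HSC-enriched group it averaged 7.02 on replicate 1, 6.99 on replicate 2, 9.54 on replicate 3 and 9.41 on replicate 4. The B cell list was also highest there on replicate 3 (6.36, against 4.90 to 5.11 on the others). So were the erythroid (5.83), monocyte (5.68), and T and NK cell (4.96) lists. Of 10 immediate-early genes, which respond within minutes to stimulation, 5 were higher and 0 lower. Without HSC-enriched replicates 3 and 4, 2 of them were higher, against 13.1% of all genes. Their mean ran from 10.86 to 11.13 on HSC-enriched arrays and was 9.91, 10.38, 10.58 and 9.27 on Lin+ replicates 1 to 4. Beside the counts of these marker lists, 15.5% of all genes were higher and 12.4% lower (25.1% and 19.3% of those above the background guide). As a guide to background, the 95th percentile of the mean levels of 1091 olfactory receptor genes was 5.09.

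The activators of the loop did not move together. Clock (Entrez gene 12753), which encodes a transcription factor with histone acetyltransferase activity, was at 6.59, 6.58, 6.37 and 6.56 on Lin+ replicates 1 to 4 and at 7.40, 7.10, 7.07 and 7.34 on HSC-enriched replicates 1 to 4. Every HSC-enriched array was above every Lin+ array, by 0.48 at the narrowest. The difference was 0.71 ± 0.11 (limma standard error, n = 4 and 4; adjusted p = 0.00086). Arntl (11865), the gene of its partner BMAL1, went the other way, at 7.30, 7.001, 6.68 and 7.31 on Lin+ arrays against 6.58, 5.99, 6.38 and 6.39 on HSC-enriched arrays. The groups stood only 0.10 apart at the closest, between Lin+ replicate 3 and HSC-enriched replicate 1. The difference was -0.74 ± 0.17, a 1.67-fold lower level (adjusted p = 0.0083). With any 1 array left out, it lay between -0.87 and -0.62 and passed each time (adjusted p = 0.0032 to 0.027).

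Npas2 (18143), which can stand in for Clock, was dim in both populations. It was at 4.22, 3.83, 3.83 and 3.64 on Lin+ and at 4.88, 4.78, 4.13 and 4.63 on HSC-enriched arrays, so that Lin+ replicate 1 exceeded HSC-enriched replicate 3. It passed the test with a difference of 0.73 ± 0.18 (adjusted p = 0.012). Its group means of 3.88 and 4.61 both lay under the background guide of 5.09, and of the 10 clock genes it was the member that neither filter on low values kept. Without it, 6 of 9 clock genes were higher.

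The Period genes encode the repressors PER1, PER2 and PER3. Per1 (18626), which also responds directly to cAMP and glucocorticoid signals, was at 8.22, 8.93, 8.70 and 7.80 on Lin+ arrays and at 9.64, 9.96, 9.73 and 9.76 on HSC-enriched arrays. HSC-enriched values kept within 0.32 of each other while Lin+ values spread over 1.12. The difference was 1.36 ± 0.22, or 2.56-fold (adjusted p = 0.00085). Per3 (18628) was at 5.58, 5.15, 5.59 and 5.28 on Lin+ and at 6.21, 6.26, 6.46 and 6.51 on HSC-enriched arrays. Its groups were 0.62 apart, with a difference of 0.96 ± 0.13, or 1.94-fold (adjusted p = 0.00033). The Lin+ mean of Per3, 5.40, lay close to the background guide. Per2 (18627) was at 6.20, 6.92, 6.55 and 6.42 on Lin+ and at 6.82, 7.18, 6.65 and 6.67 on HSC-enriched arrays. Lin+ replicate 2 lay above 3 of the 4 HSC-enriched arrays, and the difference of 0.31 ± 0.17 did not pass (adjusted p = 0.25).

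The Cryptochromes, which encode the partners of PER in repression, were opposite in sign. Cry2 (12953) was at 5.70, 6.14, 5.69 and 6.04 on Lin+ and at 6.89, 6.75, 6.79 and 6.90 on HSC-enriched arrays, a spread of only 0.15 in the latter. The difference was 0.94 ± 0.13, or 1.92-fold higher (adjusted p = 0.00027). Cry1 (12952) was at 6.97, 6.96, 7.07 and 7.16 on Lin+ and at 6.70, 6.81, 6.89 and 6.35 on HSC-enriched arrays. All its HSC-enriched arrays were lower, by 0.07 at the narrowest, but the difference of -0.35 ± 0.13 did not pass (adjusted p = 0.072), nor did it under any alternative run (adjusted p = 0.052 to 0.17).

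The REV-ERB genes, which encode haem-binding nuclear receptors that repress Arntl, had the largest differences of the 10. Nr1d1 (217166) was at 5.81, 6.14, 5.33 and 4.90 on Lin+ and at 7.22, 7.05, 6.83 and 7.16 on HSC-enriched arrays. The Lin+ arrays spread over 1.24, with replicate 4 under the background guide, yet the highest was still 0.69 below the lowest HSC-enriched array. The difference was 1.52 ± 0.24, or 2.87-fold (adjusted p = 0.00069). Nr1d2 (353187) was at 7.35, 7.15, 7.07 and 7.17 on Lin+ and at 8.44, 8.92, 8.74 and 8.42 on HSC-enriched arrays, with a gap of 1.06 between the groups, the widest of the 10. The difference was 1.44 ± 0.13, or 2.72-fold (adjusted p = 2.1e-05).

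Per1 and Nr1d1 shared their order on the Lin+ arrays in part with the immediate-early list. All 3 were lowest on Lin+ replicate 4, and both genes were highest on Lin+ replicate 2. Without Lin+ replicate 4, Per1 was higher by 1.15 (adjusted p = 0.001) and Nr1d1 by 1.31 (adjusted p = 0.00092). The immediate-early list was higher on all HSC-enriched arrays than on any Lin+ array, and its part in the rise of Per1 was not tested. The part of the mature lineage transcripts, lower or, for megakaryocyte genes, higher in HSC-enriched cells, was not tested either. Without the third and the fourth HSC-enriched array, where neutrophil transcripts were higher, 7 clock genes were higher and 1 lower, against 13.1% and 9.96% of all genes. The differences were then 1.39 for Per1, 1.59 for Nr1d1, 1.49 for Nr1d2 and -0.79 for Arntl.

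**Figure D2:**
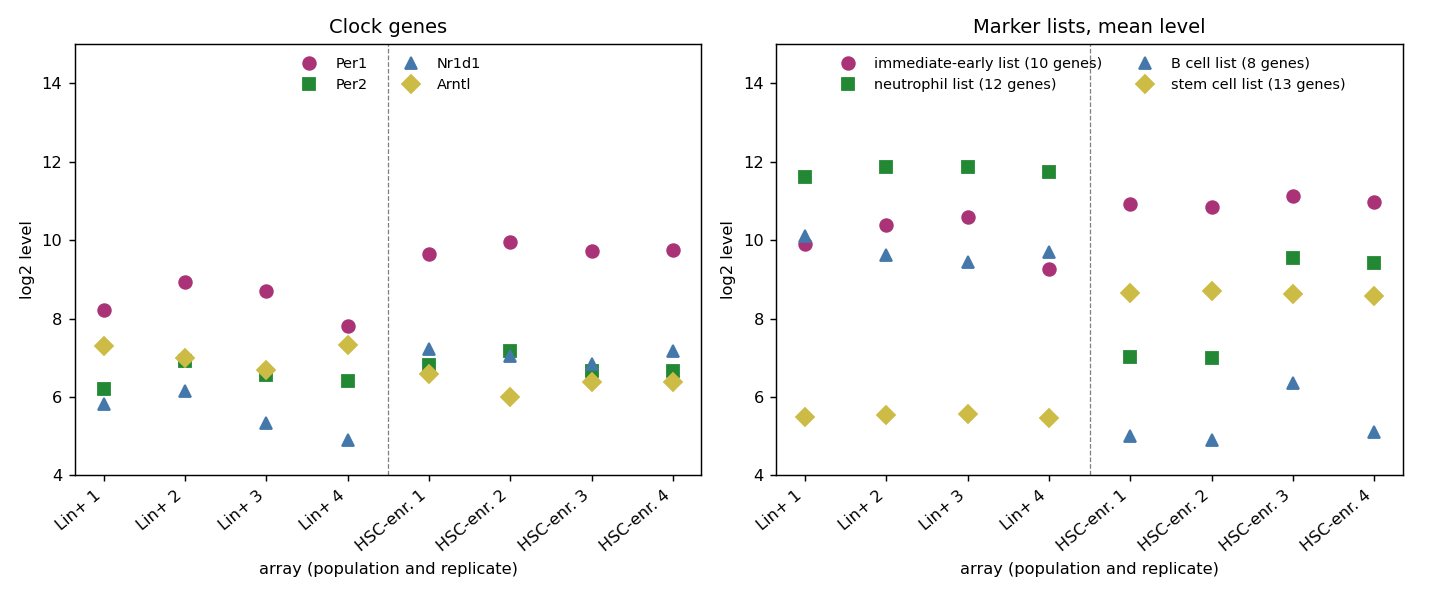
Log2 level (y axis) on each array (x axis) of Per1, Per2, Nr1d1 and Arntl (left) and mean log2 level of 4 marker lists (right), with a dashed line between the populations. Per1, Nr1d1 and the immediate-early list are lowest on Lin+ replicate 4, and the neutrophil list is higher on the third and the fourth HSC-enriched array (9.54 and 9.41) than on the other two (7.02 and 6.99).

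Related genes of a family were set against each other within each array, which shows unequal change and not which level is higher. For Cry1 minus Cry2 the log2 difference was 1.15 ± 0.25 on Lin+ and -0.14 ± 0.30 on HSC-enriched arrays (SD, n = 4), with no overlap. The shift of -1.29 had p = 0.029 (exact two-sided permutation test over 70 splits, the smallest p that 4 against 4 arrays allow), and 0.086 after Benjamini-Hochberg adjustment over the 6 pairs tested. Per1 minus Per2 shifted by 1.05, from 1.89 ± 0.34 to 2.94 ± 0.16, with the same exact p of 0.029 and adjusted p of 0.086. The Cry and the Per1 to Per2 contrasts thus did not pass the adjustment. At an exact p of 0.029 no pair can pass over 6 pairs unless several others reach that floor too. The miss is therefore no evidence for an equal change of these genes. Per2 minus Per3 shifted by -0.65 (exact permutation p = 0.057, adjusted 0.11) and Per1 minus Per3 by 0.40 (exact permutation p = 0.23, adjusted 0.34), with overlapping groups in both. Clock minus Npas2 shifted by -0.02 and Nr1d1 minus Nr1d2 by 0.08 (exact permutation p = 0.83 and 0.80, adjusted 0.83 for both), and these shifts changed sign when single arrays were left out.

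**Figure D3:**
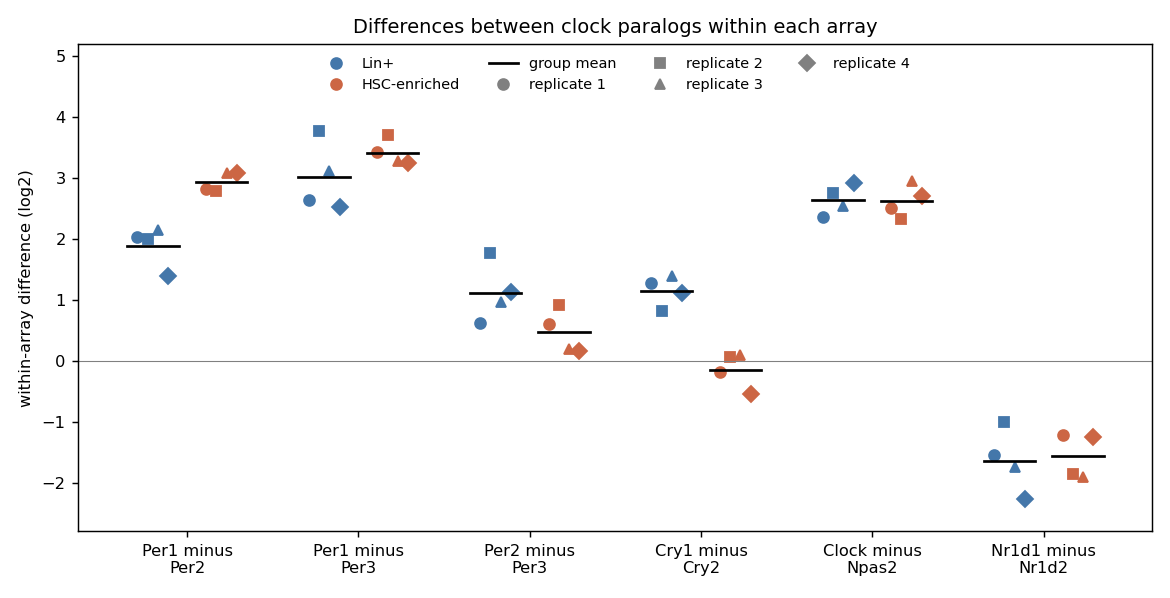
Difference in log2 level between related clock genes on the same array (y axis) for 6 pairs (x axis), on Lin+ (blue) and HSC-enriched arrays (orange), with black lines at group means. The groups separate for Per1 minus Per2 and for Cry1 minus Cry2, and overlap for the other 4 pairs.

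The promoters of the clock genes were searched for the letters through which the loop is known to act. RefSeq promoter windows of GRCm38.p6, each running from 250 bases before to 50 bases after an annotated start, were held for 9 of the 10 genes (13 windows). Per2 had no window. Both strands were searched for the E-box CACGTG, bound by CLOCK and BMAL1, for TTATGTAA, a D-box bound by DBP, TEF, HLF and NFIL3, for the receptor core TAGGTCA or TGGGTCA, bound by ROR and REV-ERB, and for the cAMP response element TGACGTCA. The matches shown do not overlap each other. Of all 32851 windows, 7.15% held the E-box, 0.938% the D-box, 6.45% the receptor core and 1.79% the cAMP element. A match in the 13 windows was found for 4 genes, and those 4 windows are shown, with the matches in capitals.

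Per1, chr11:69098699-69098998, plus strand: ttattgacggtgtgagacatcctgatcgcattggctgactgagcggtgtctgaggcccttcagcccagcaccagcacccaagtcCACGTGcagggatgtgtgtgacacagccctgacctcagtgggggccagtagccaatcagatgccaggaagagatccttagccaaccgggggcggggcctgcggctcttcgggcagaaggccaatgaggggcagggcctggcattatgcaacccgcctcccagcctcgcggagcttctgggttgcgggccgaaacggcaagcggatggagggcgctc
Cry1, chr10:85185005-85185304, minus strand: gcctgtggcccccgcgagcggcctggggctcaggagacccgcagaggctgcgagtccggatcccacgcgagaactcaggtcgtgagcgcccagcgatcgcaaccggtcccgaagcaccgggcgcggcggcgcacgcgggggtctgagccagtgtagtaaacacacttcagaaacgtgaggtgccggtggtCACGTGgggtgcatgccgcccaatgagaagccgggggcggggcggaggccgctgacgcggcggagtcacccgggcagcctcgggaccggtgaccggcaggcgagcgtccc
Per3, chr4:151044616-151044915, minus strand: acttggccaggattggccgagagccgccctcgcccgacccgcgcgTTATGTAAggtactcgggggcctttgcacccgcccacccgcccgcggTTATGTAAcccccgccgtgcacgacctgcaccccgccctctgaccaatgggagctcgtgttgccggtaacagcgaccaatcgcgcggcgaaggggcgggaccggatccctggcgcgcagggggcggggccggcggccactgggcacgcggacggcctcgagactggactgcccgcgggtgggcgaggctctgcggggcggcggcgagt
Arntl, chr7:113207261-113207560, plus strand: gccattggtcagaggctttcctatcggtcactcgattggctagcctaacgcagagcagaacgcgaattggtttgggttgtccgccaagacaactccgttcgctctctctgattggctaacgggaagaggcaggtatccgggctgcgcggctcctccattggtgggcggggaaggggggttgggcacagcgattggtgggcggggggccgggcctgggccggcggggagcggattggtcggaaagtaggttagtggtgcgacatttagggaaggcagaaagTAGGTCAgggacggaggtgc

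In the windows shown, Per1 held the E-box with its first base 166 bases before the annotated start and Cry1 with its first base 60 bases before it. Of these genes Per1 was 2.56-fold higher and Cry1 did not pass. Per3, higher by 1.94-fold, held the D-box at 205 and again at 158 bases before its start. Arntl, which was lower, held the receptor core on the transcript's strand, beginning at base 31 after the start. The windows of Clock, Cry2, Nr1d1, Nr1d2 and Npas2 held none of these letters, nor did the other window of Per1 and that of Arntl. The cAMP element was found in none of the 13 windows. These absences say nothing about sites elsewhere.

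Other transcription factors of the loop were mixed. Of 12 listed, 11 were analysed, of which 4 were higher and 2 lower, beside 15.5% and 12.4% of all genes (25.1% and 19.3% above the background guide). The remaining 5 missed the threshold, and the median difference was 0.15. Rora, whose receptor activates Arntl in competition with REV-ERB, was at 5.85, 6.13, 5.99 and 5.79 on Lin+ and at 7.46, 8.17, 7.07 and 7.22 on HSC-enriched arrays. That is 2.91-fold higher (1.54 ± 0.21, adjusted p = 0.00032), so that genes of an activator and of both repressors of Arntl were all higher where Arntl was lower. Hlf, a D-box factor also known as a stem cell gene, was 20.2-fold higher (4.34 ± 0.15, adjusted p = 8.2e-08). Its relative Tef was 1.33-fold higher (0.41 ± 0.12, adjusted p = 0.022), a call lost with the replicate block (adjusted p = 0.057). Dbp, usually among the strongest rhythmic outputs of the clock, was at 6.29 to 6.65 on Lin+ and 6.52 to 6.65 on HSC-enriched arrays and did not pass (0.15 ± 0.12, adjusted p = 0.46). Nfil3, which represses through the D-box, fell 2.10-fold, from 8.11 ± 0.50 to 7.04 ± 0.29 (SD, n = 4; adjusted p = 0.0068).

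The E-box repressors Bhlhe40 and Bhlhe41 had unlike values. Bhlhe41 was at 5.45, 5.23, 5.84 and 5.29 on Lin+ and at 3.84, 3.34, 3.09 and 3.71 on HSC-enriched arrays. It was lower by -1.96 ± 0.19 (adjusted p = 2.8e-05), a size that rests on HSC-enriched levels under the background guide. Bhlhe40 overlapped throughout, at 7.84 to 8.86 and 8.26 to 9.35, and did not pass (0.07 ± 0.28, adjusted p = 0.90). Its difference turned to -0.15 without Lin+ replicate 4 and to -0.19 without HSC-enriched replicate 2. Ciart, which encodes a repressor of CLOCK and BMAL1, was higher by 0.46 ± 0.15 (adjusted p = 0.037). Ciart and Tef both missed the threshold when Lin+ replicate 3 or 4 or the third HSC-enriched array was left out, which left 2 higher genes in each case, and also without HSC-enriched replicates 3 and 4 together (2 higher). Ciart also missed it without Lin+ replicate 2 (adjusted p = 0.067) or the first or the second HSC-enriched array (0.095 and 0.085). In the same list Rorb, Arntl2 and Cipc did not pass. Rorb (adjusted p = 0.051), under the background guide in both groups, passed in 6 alternatives (adjusted p = 0.021 to 0.048), among them centring and quantile normalization.

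**Figure D4:**
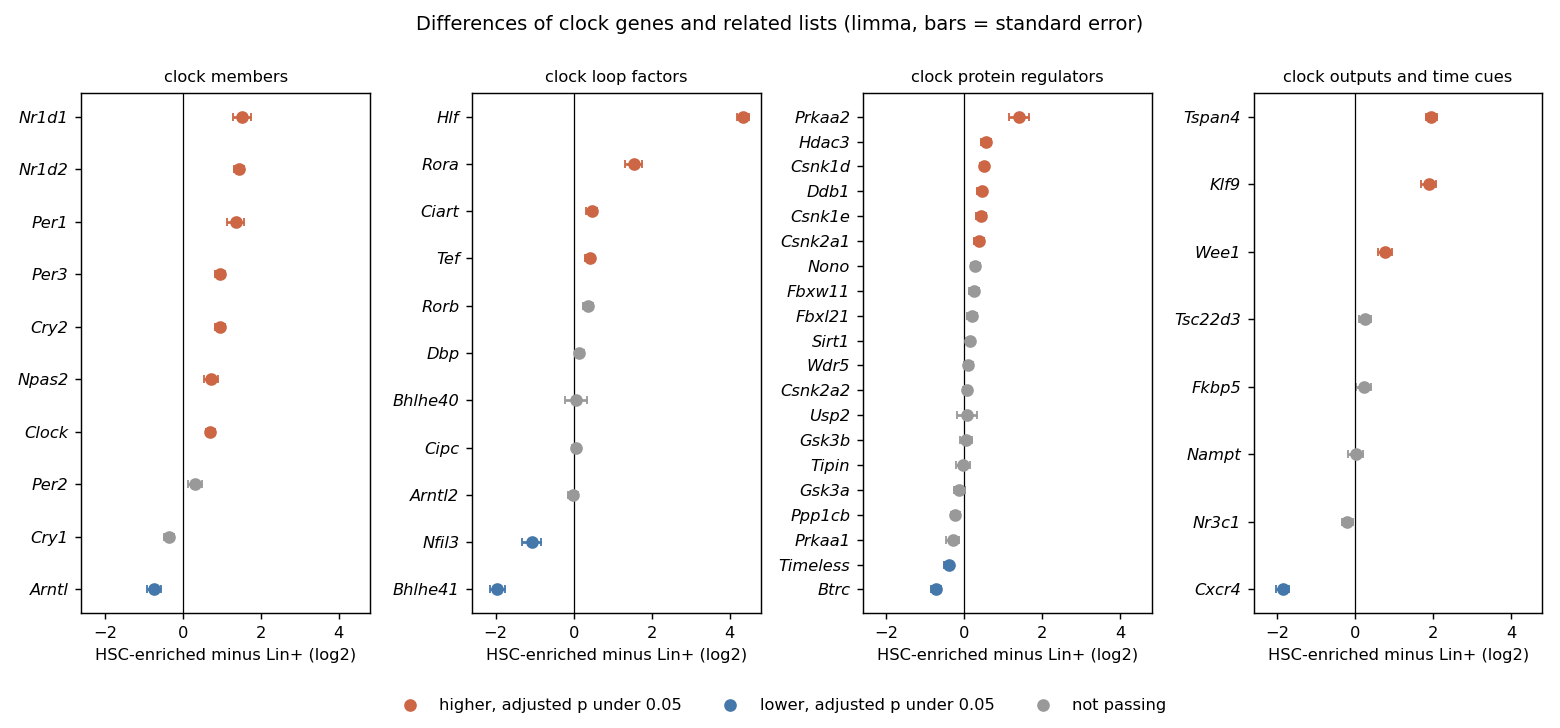
Difference in log2 level, HSC-enriched minus Lin+ (x axis), with its standard error, for the genes of 4 lists (y axis), coloured by whether the limma adjusted p was under 0.05. Among the clock genes 7 are higher and 1 lower, and in the other lists 4 are higher and 2 lower of 11, 6 and 2 of 20, and 3 and 1 of 8.

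Genes of kinases, ubiquitin ligases and other proteins that act on clock proteins went both ways. Of 23 listed, 20 were analysed, of which 6 were higher, 2 lower and 12 did not pass, with a median of 0.13. Over all genes 15.5% were higher and 12.4% lower, and above the background guide 25.1% and 19.3%. Prkaa2, a catalytic subunit gene of AMP-activated kinase, which marks CRY for breakdown, was 2.64-fold higher (1.40 ± 0.26, adjusted p = 0.002), with a Lin+ mean of 4.58 under the background guide. Prkaa1, the other catalytic subunit gene, was brighter (means of 8.47 on Lin+ and 8.17 on HSC-enriched arrays). It did not pass (-0.30 ± 0.17, adjusted p = 0.25). The genes of the casein kinases that phosphorylate PER were higher by smaller amounts, Csnk1d by 0.51 ± 0.10 (adjusted p = 0.0028) and Csnk1e by 0.43 ± 0.14 (adjusted p = 0.041). Hdac3, the deacetylase through which REV-ERB represses, was higher by 0.55 ± 0.13 (adjusted p = 0.0078). Ddb1 and Csnk2a1 were the other higher genes, at 0.44 and 0.37. Csnk1e and Csnk2a1 lost their calls in several alternatives, centring among them (adjusted p = 0.072 and 0.055), and Csnk2a1 also with the replicate block (0.089).

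Btrc, the ubiquitin ligase adaptor gene for PER, was lower by -0.73 ± 0.14 (adjusted p = 0.0027), at 7.48 to 7.82 on Lin+ and 6.73 to 7.21 on HSC-enriched arrays. Its relative Fbxw11 did not pass (0.24 ± 0.13, adjusted p = 0.23). Timeless was the other lower gene (-0.40 ± 0.12, adjusted p = 0.026). It missed the threshold when Lin+ replicate 2 or 4 or the fourth HSC-enriched array was left out, which left 1 lower gene, with the replicate block (adjusted p = 0.08, 1 lower gene) and with the third and the fourth HSC-enriched array both left out (adjusted p = 0.16, 1 lower gene). Ppp1cb (-0.23 ± 0.12) and Gsk3b (0.03 ± 0.15) were the brightest of those that did not pass.

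Among 8 analysed of 12 listed output genes and receptors of time cues, 3 were higher, 1 was lower and 4 did not pass. The median difference was 0.23. Over all genes 15.5% were higher and 12.4% lower, and above the background guide 25.1% and 19.3%. Tspan4, a tetraspanin gene known to cycle in many organs, was 3.86-fold higher (1.95 ± 0.15, adjusted p = 4.9e-06). Klf9, a glucocorticoid-responsive factor gene, was at 6.35, 6.63, 6.17 and 5.65 on Lin+ and at 7.97, 8.24, 8.23 and 7.88 on HSC-enriched arrays, or 3.68-fold higher (1.88 ± 0.20, adjusted p = 4.4e-05). Like Per1 and Nr1d1 it was lowest on Lin+ replicate 4. Wee1, a gene under E-box control whose kinase holds back entry into mitosis, was higher by 0.76 ± 0.18 (adjusted p = 0.0084).

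Cxcr4, the receptor gene for the ligand that retains cells in marrow, was 3.62-fold lower, at 10.68, 11.08, 11.003 and 10.57 on Lin+ and at 8.54, 9.19, 9.16 and 9.02 on HSC-enriched arrays (-1.86 ± 0.17, adjusted p = 2.0e-05). Nr3c1, which encodes the glucocorticoid receptor, did not pass (-0.21 ± 0.14, adjusted p = 0.35). Neither did its target Tsc22d3 (0.25 ± 0.16, adjusted p = 0.33), nor did Fkbp5 of the same list (0.22 ± 0.19, adjusted p = 0.47). The glucocorticoid-responsive genes Klf9 and Tsc22d3 thus had unlike calls, a difference not itself tested.

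For the 3 clock genes that rose at least 2-fold, the genes with the most similar profile over the 8 arrays were sought. Likeness was the root mean square distance between profiles centred on their own mean. Predicted loci, Rik clones, microRNA and small nucleolar RNA genes and accession-like symbols were left out of the search. Nr1d2 was closest to Gnat2, Utp14b and Arhgap28, at distances of 0.08, 0.09 and 0.10 log2 units, of which Gnat2 lay under the background guide in both groups (means 3.60 and 4.93). Per1 was closest to Snx16, Jag2 and Saraf (0.17, 0.17 and 0.19), and Nr1d1 to Metap1d, Coprs and Rida (0.19, 0.19 and 0.21). No clock gene was among the 3 closest to another.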

How the data were processed

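RNA from sorted cells was amplified with the Ovation Pico system and hybridised to MouseGene arrays, of which 2 designs (1.0st and 2.0st) are named without saying which sample went on which, per the labels' protocols. The authors deposited log2 values for 24973 probe sets, each with 1 Entrez gene ID, and per the submitters' processing notes RMA and Partek were used, with no version stated. The genome build and probe set definition were not given in the sources used here. Of the probe sets 24015 had 1 symbol, 0 several and 958 none. Symbols were updated by Entrez ID through RefSeq (GRCm38.p6), and the brightest probe set per symbol was kept, giving 24011 genes.

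Differences are HSC-enriched minus Lin+ means, compared by limma's lmFit and eBayes (version 3.58.1, in R 4.3.3) without covariates or a filter on low values, and adjusted over all genes. The fit was tested on simulated data. The clock genes, lists, tests and alternatives were chosen with earlier results of these data known. Of the 57 genes in the clock lists, 8 were not analysed here.

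Besides the clock genes, the rule for named genes took every related gene past the test at 2-fold or more, the 2 brightest not passing per list and the closest profiles. Other list genes were named after their values were seen. Alternatives were median centring, quantile normalization, minimum levels of 4.72 (the 40th percentile) or 5.27 (the median) on 4 arrays, the mean of probe sets, array weights, a trend with robust estimates, a block for replicate number, and arrays left out. Figures used matplotlib 3.10.9.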

Additional observations from a re-analysis of the deposited data

Results flagged for a closer look

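Among 48 groups of 4 arrays, 2 held an array far from the other 3, and chance gives about 1 in 20 groups. The groups were those of the 24 genes that the rule took from the clock lists, in 2 populations. Clock was at 6.37 on Lin+ replicate 3 against 6.56 to 6.59 on the others. Bhlhe40 was at 9.35 on HSC-enriched replicate 2 against 8.26 to 8.36 on the others.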

How the results depend on the processing

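All 10 clock genes kept their direction and their side of the threshold in each of the 17 alternatives that gave a value. So did 22 of the 24 genes that the rule took from the clock lists, these 10 included. The closest profiles and the list genes named later are not among the 24. Of the latter, Csnk2a1 lost its call in 9 alternatives, Ciart and Csnk1e in 7 each, and Tef and Timeless in 5 each. Rorb gained a call in 6. Npas2 gave none under either filter, where 6 of 9 clock genes were higher. Among loop factors the count of higher genes ran from 2 to 5 with single arrays left out and was 2 without HSC-enriched replicates 3 and 4, and the count of lower genes was 1 with the filter at the median, which drops Bhlhe41. Among protein regulators the count of lower genes ran from 1 to 2 with single arrays left out and was 1 with the replicate block and 1 without HSC-enriched replicates 3 and 4. The causes of the other changes were not tested. With single arrays left out, differences that had not passed changed sign for Bhlhe40 (-0.19 to 0.19) and Gsk3b (-0.049 to 0.17), as did the shifts of Clock minus Npas2 (-0.13 to 0.080) and Nr1d1 minus Nr1d2 (-0.13 to 0.29). The replicate number gave no sign of pairing: deviations of same-numbered arrays correlated at -0.15, 0.06, 0.03 and -0.10 across genes. Correlations between such unlike populations cannot show whether arrays shared animals or a day. As a block the replicate number left 7 clock genes higher and 1 lower, and 3 higher loop factors. For the block, the filters and single arrays left out, no shares over all genes are given beside the counts. In the main fit 15.5% of all genes were higher and 12.4% lower, and these shares can differ under other settings. Signal over background limits Npas2, Bhlhe41 and Prkaa2, whose folds rest on levels near or under the guide. Among the clock genes, the Lin+ means of Per3 (5.40) and Nr1d1 (5.55) also lay close to the guide of 5.09.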

Other observations

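Clock genes also differed between arrays of the same population, in a pattern picked out after the values were seen. Among HSC-enriched arrays, replicate 2 was highest for Per1 (9.96), Per2 (7.18), Nr1d2 (8.92), Rora (8.17) and Bhlhe40 (9.35) and lowest for Arntl (5.99). It was also lowest for Cry2 (6.75), and Nr1d1 was highest on replicate 1 (7.22). Usp2, a deubiquitinase gene known as a clock output, was at 5.84, 6.995, 5.55 and 6.18 on HSC-enriched replicates 1 to 4. Among Lin+ arrays, replicate 2 was highest for Per1 (8.93), Per2 (6.92), Nr1d1 (6.14), Bhlhe40 (8.86), Dbp (6.65) and Nfil3 (8.59), while Arntl was lowest on replicate 3 (6.68). Lin+ replicate 2 was also lowest for Per3 (5.15) and Cry1 (6.96). Over all genes, HSC-enriched replicate 2 was the highest of its group for 22.2% and Lin+ replicate 2 for 19.8%. Among the 10 clock genes these arrays were highest for 3 and 4 and lowest for 2 and 2, and HSC-enriched replicate 1 was highest for 4.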
